A study of Mus musculus with 24 samples.

Results

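Yolk sacs homozygous (HO) for a null allele of Setd2 were compared with yolk sacs of the same mouse line that carried the other genotypes, at embryonic day 9.5. The comparison took 6 of the 24 libraries of the series by their labels: 2 HO libraries against 4 controls, of which 2 were labelled wild type (WT) and 2 heterozygous (HE). WT and HE were pooled because the libraries labelled WT held Setd2 at a level no higher than HE, and all genes were described. The series also holds whole embryos of this line, and yolk sacs and embryos of another line with a catalytic dead (CD) allele of Setd2, all C57BL/6 mice with the same 3 genotypes and 2 libraries per group. SETD2 protein was not measured. The sources used here do not say which part of Setd2 the null allele lacks, whether a library came from 1 yolk sac or several, from which litter, or whether its embryo was sequenced too. Where replicates are not known to be separate animals, p-values measure only the spread between libraries, which may be technical. Whole yolk sacs were taken, so fewer cells of a type and less RNA per cell cannot be told apart in any change below.

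SETD2 places trimethylation on H3K36 along the bodies of transcribed genes. The visceral yolk sac consists of an outer epithelium, the visceral endoderm, which takes up and digests maternal nutrients and secretes apolipoproteins and carrier proteins, and an inner mesoderm with blood vessels, primitive red cells and mesothelium. During midgestation its first network of endothelial tubes is remodelled into arteries, veins and smaller vessels, and primitive red cells enter the circulation.

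The 6 null yolk sac libraries held 18068861 to 22112970 counts. Levels are given as CPM, the counts of a gene relative to the scaled library total (edgeR's cpm; 1 CPM is about 20 counts here), in the order replicate 1 and replicate 2. Transcripts of visceral endoderm (Afp, 6624 to 9539 CPM), primitive red cells (Hba-x, 2030 to 6714 CPM) and endothelium (Cdh5, 103 to 165 CPM) were present in all 6 libraries, and the 11 defining markers of neural tube, heart and somite lay at 0.594 CPM or less. Of the longer list of genes of the embryo proper 13 were tested and 1 was called, the neuronal gene Stmn2, at 1.37 to 2.10 CPM in the controls and at 0 counts in both HO libraries (edgeR adjusted p = 0.00522, lost without HO replicate 1). The heart muscle genes Actc1 (1.46 to 6.67 CPM in the controls, 2.15 and 3.67 CPM in HO) and Tnnt2 (0.606 to 2.69 CPM, 0.888 and 1.94 CPM) were detected in all 6 libraries, with overlapping groups. The trophoblast marker Prl3d1 was uneven, from 0.051 to 11.1 CPM among the controls and at 2.66 and 4.05 CPM in HO. The macrophage markers divided. Adgre1 was at 0 counts in all 6 libraries and C1qa at 0.102 CPM or less. Csf1r was at 10.3 to 12 CPM in the controls and at 23.5 and 15.8 CPM in HO, above all of them without a call. Ptprc (3.15 to 8.65 CPM in the controls, 2.06 and 0.486 CPM in HO) was below every control in both HO libraries. So was Cx3cr1 (0.319 to 1.17 CPM in the controls, 0.093 and 0.054 CPM in HO). HE replicate 1 and HO replicate 1 held the Y-linked Ddx3y (122 and 109 CPM) with Xist at 18.1 CPM or less, and the other 4 held Xist at 1370 CPM or more, so the 2 HO libraries did not come from the same yolk sac. The libraries labelled WT stood apart by transcripts of B cells and neutrophils, 7 genes chosen after their values were seen (Ighm, Igkc, Pax5, Cd74, S100a8, S100a9 and Ngp), with sums of 43 and 65.8 CPM, against 4.91 and 6.80 CPM in HE and 8.13 and 4.70 CPM in HO. On the first principal component of the 12 yolk sac libraries of both lines, which held 31.6% of the variance, the null HO libraries lay at 57.0 and 46.0 and the null controls between -30.7 and -25.7.

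Setd2 (ENSMUSG00000044791, mm10 chromosome 9, 110532597 to 110618633) stood at 102 and 114 CPM in the libraries labelled WT, at 114 and 120 CPM in HE and at 75.6 and 78.9 CPM in HO. Both HO libraries were below all 4 controls. The fall was -0.54 (log2 scale, standard error, SE, 0.083; edgeR adjusted p = 0.00204) and it passed in every alternative fit that was run, including each fit without 1 library. In yolk sacs of the CD line Setd2 lay between 170 and 194 CPM in all 6 libraries. No library labelled WT exceeded both HE libraries, so the absence of a heterozygous effect on Setd2 and a genotype other than the label cannot be told apart. HE against the libraries labelled WT gave 0 called genes by edgeR's quasi-likelihood test, with 360 at an unadjusted p under 0.05 (2.03% of those tested).

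Homozygous null yolk sacs differed from the controls at 2176 of 17755 tested genes (12.3%; edgeR's quasi-likelihood test, Benjamini-Hochberg adjusted p under 0.05). Of these, 1075 rose (6.05% of the genes tested) and 1101 fell (6.2%). Changes of at least 1 log2 unit made up 528 of the rises (2.97% of tested genes) and 418 of the falls (2.35%). The median change of all tested genes was 0.02. The 2 HO libraries lay above all 4 controls at 22.3% of tested genes and below them at 19.9%. The number of calls rested on each library: it was 1327 without WT replicate 1, 1187 without WT replicate 2, 1418 without HE replicate 1, 1532 without HE replicate 2, 441 without HO replicate 1 and 1099 without HO replicate 2. Of the 441, 423 were among the 2176. HO against HE alone gave 1454 calls (8.19%; 669 higher, 3.77%, and 785 lower, 4.42%), and against the libraries labelled WT alone 1113 (6.27%; 408 higher, 2.3%, and 705 lower, 3.97%). Below, a gene rose or fell where it passed this test. Calls in gene lists are to be read beside the shares of all tested genes, 6.05% higher and 6.2% lower.

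**Figure D1:**
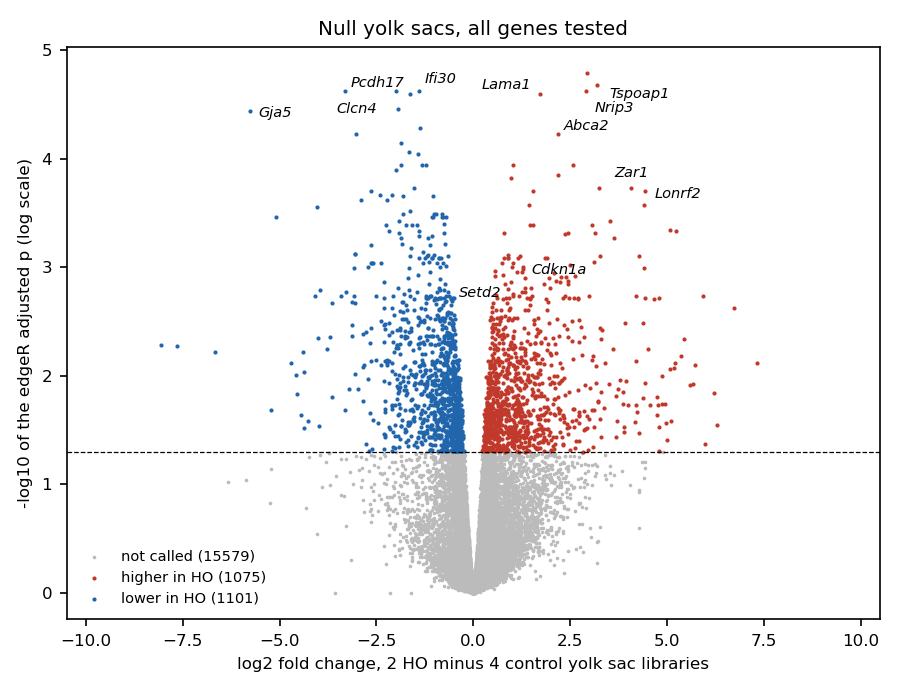
Each point is 1 of the 17755 genes tested in null yolk sacs, with the log2 change of the 2 HO libraries from the 4 controls across and -log10 of the edgeR adjusted p upwards; the dashed line is the 0.05 threshold. The 1075 higher and 1101 lower genes spread to both sides, with Gja5 at -5.76 far to the left and Tspoap1 at 3.20 near the top.

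The fall with the smallest p among named genes was that of Ifi30, a thiol reductase of lysosomes that reduces disulfide bonds in antigens. It was at 171 and 151 CPM in the libraries labelled WT, at 176 and 172 CPM in HE and at 62.3 and 63.7 CPM in HO (-1.41, SE 0.10, edgeR adjusted p = 2.39e-05). The HO replicates were almost equal and far below every control. Pcdh17, a protocadherin of cell adhesion, was at 24.3 and 27.4, at 19.7 and 29.9, and at 1.96 and 3.13 CPM in the same order (-3.32, SE 0.24, edgeR adjusted p = 2.39e-05). Clcn4, a chloride and proton exchanger of endosomes, was at 40.3 and 37.1, at 39.6 and 41.1, and at 9.21 and 11.6 CPM (-1.93, SE 0.15, edgeR adjusted p = 3.47e-05). Several of the other falls among the 12 of smallest p concern digestion and breakdown: Dpp7, a peptidase of lysosomes and vesicles (-1.62), Aass, the first enzyme of lysine breakdown (-1.37), Ces2b, a carboxylesterase (-1.66) and the ribonuclease gene Rnase4 (-1.42). Depp1 (-3.02), a target of FOXO factors, the tetraspan membrane protein gene Tm4sf5 (-1.87) and the collagen gene Col14a1 (-1.87) were also among them, as was Gja5, described with the vessels. All 12 kept the call whichever single library was left out.

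Among the genes that rose, Tspoap1, whose product binds presynaptic scaffold proteins (mm10 chromosome 11, 87760541 to 87785928), was at 2.22 and 3.16 CPM in the libraries labelled WT, at 2.70 and 2.14 CPM in HE and at 27.8 and 19.2 CPM in HO (3.20, SE 0.21, edgeR adjusted p = 2.12e-05). Nrip3 was at 3.33 and 2.55, at 4.46 and 4.2, and at 25.8 and 28 CPM in the same order (2.91, SE 0.20, edgeR adjusted p = 2.39e-05). Each HO library held several times the highest control level of these genes. Others rose from near 0: the RING finger gene Lonrf2 from 0.245 to 0.407 CPM among the controls to 7.99 and 6.91 CPM (4.42, SE 0.44, edgeR adjusted p = 0.0002), and Zar1, known for its role in the oocyte, from 0.0509 to 0.343 CPM to 3.32 and 3.02 CPM (4.06, SE 0.40, edgeR adjusted p = 0.000185). Further rises were the lipid transporter gene Abca2 (2.18), Fabp3, a fatty acid binding protein of heart and muscle (2.58), the antiviral cytidine deaminase gene Apobec3 (2.18), Scube2, a secreted protein that helps to release Hedgehog ligands (3.24), and Fermt3, the integrin activator of blood cells (1.54). Dkc1, the pseudouridine synthase of ribosomal and telomerase RNA, rose from 93.1 to 103 CPM among the controls to 209 and 186 CPM (1.02, SE 0.093, edgeR adjusted p = 0.000113). Lama1 and Ccn1 are described with their groups. All 12 of these rises kept the call whichever single library was left out.

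To show the sequence around the starts of genes with large changes, the RefSeq promoter windows (GRCm38.p6, the build also called mm10; 250 bases before to 50 after the annotated start, 5′ to 3′) of 2 genes that fell and 2 that rose from near 0 are printed with each CG dinucleotide, the site of DNA methylation, in capitals. Gja5 lies at chr3:97032152-97032451 on the plus strand and holds 7, Col3a1 at chr1:45311288-45311587 on the plus strand holds 0, Lonrf2 at chr1:38836638-38836937 on the minus strand holds 20, and Zar1 at chr5:72581035-72581334 on the minus strand holds 17.
Gja5: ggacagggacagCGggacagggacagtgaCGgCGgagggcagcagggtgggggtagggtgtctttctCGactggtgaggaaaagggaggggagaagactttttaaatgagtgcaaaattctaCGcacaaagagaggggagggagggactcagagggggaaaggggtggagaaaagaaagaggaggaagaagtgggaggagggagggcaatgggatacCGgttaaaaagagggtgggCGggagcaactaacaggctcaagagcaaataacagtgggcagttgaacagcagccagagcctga
Col3a1: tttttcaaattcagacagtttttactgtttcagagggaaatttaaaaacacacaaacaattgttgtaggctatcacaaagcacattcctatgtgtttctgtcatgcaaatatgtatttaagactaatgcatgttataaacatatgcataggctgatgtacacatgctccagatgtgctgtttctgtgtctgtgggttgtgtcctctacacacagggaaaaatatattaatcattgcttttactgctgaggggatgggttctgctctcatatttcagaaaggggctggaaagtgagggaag
Lonrf2: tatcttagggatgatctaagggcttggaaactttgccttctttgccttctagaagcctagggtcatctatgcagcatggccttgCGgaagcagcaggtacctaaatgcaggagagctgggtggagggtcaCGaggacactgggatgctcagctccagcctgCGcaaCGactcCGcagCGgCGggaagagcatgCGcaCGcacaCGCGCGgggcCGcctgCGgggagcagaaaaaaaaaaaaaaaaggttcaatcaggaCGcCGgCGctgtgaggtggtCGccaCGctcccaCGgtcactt
Zar1: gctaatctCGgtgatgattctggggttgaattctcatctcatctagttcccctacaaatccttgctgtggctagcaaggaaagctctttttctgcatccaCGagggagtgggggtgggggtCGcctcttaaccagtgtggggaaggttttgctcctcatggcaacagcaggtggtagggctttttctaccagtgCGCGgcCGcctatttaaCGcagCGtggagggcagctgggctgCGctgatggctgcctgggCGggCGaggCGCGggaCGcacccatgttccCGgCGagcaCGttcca
CG reads the same on both strands, and 94.6% of the 32851 windows in the RefSeq table hold at least 1. One window per gene was found for 9519 of the 17755 tested genes. Their median was 20 CG per 300-base window. It was 9 for the 228 genes that fell by at least 1 log2 unit and 16 for the 293 that rose by as much, against 17 for all 625 falls, 22 for all 642 rises and 20 for the 8252 genes that were not called. The genes with larger changes were also expressed at a lower level. The median over genes was 6.53 CPM for the larger falls and 2.44 CPM for the larger rises. It was 19.3 CPM for all genes with a window. The part of level in these differences was not tested.

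Of 26 tested genes of arterial identity and Notch signalling 7 fell and 1 rose (30.77% called against 12.3% of all genes). The median change of the list was -0.29 against 0.02 for all tested genes. Gja5, the gap junction gene of arterial endothelium (connexin 40; mm10 chromosome 3, 96904693 to 97077416), was at 42.3 and 52.2 CPM in the libraries labelled WT, at 46.7 and 43 CPM in HE and at 1.26 and 0.378 CPM in HO. Both HO libraries were close to 0 and the 4 controls close together, a change of -5.76 (SE 0.45, edgeR adjusted p = 3.62e-05). Gja4, the connexin 37 gene of the same cells, was at 9.12 to 12.2 CPM among the controls and at 1.03 and 1.08 CPM in HO (-3.28, SE 0.48, edgeR adjusted p = 0.0017). The chemokine gene Cxcl12, which guides arterial assembly, fell by 1.40, the Notch ligand gene Jag1 by 1.89, and Nr2f2, a regulator of venous identity in the same list, by 0.85. Another Notch ligand gene, Jag2, was the member that rose (1.58, from 2.07 to 2.69 CPM among the controls to 5.94 and 8.05 CPM). Without HO replicate 1 the falls numbered 4, and Nr2f2 and Jag1 lost their calls, and without HO replicate 2 Jag2 did.

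Of 41 tested genes of endothelial receptors, adhesion and regulators, 12 fell and 2 rose (34.15% called against 12.3% of all genes, median -0.37). Calcrl, the receptor for adrenomedullin, was at 93.6 and 135 CPM in the libraries labelled WT, at 111 and 105 CPM in HE and at 22.5 and 29.5 CPM in HO (-2.10, SE 0.21, edgeR adjusted p = 0.000216). Its HO levels were less than any control level by a wide margin. Clec14a, an endothelial lectin-like receptor, fell by 1.65, Plvap, which forms the diaphragms of endothelial pores, by 1.20, and the BMP9 receptor gene Acvrl1 by 0.84. The rises were the transcription factor genes Sox17, described with the endoderm, and Tal1 (0.94), which red cells share; the call of Tal1 was lost whichever null library was left out. The defining endothelial markers divided. By level alone, Kdr, Tie1 and Emcn were lower in both HO libraries than in every control, as were 19.9% of all tested genes. Test results for these markers are not reported here. Mean levels were 131.8 CPM in HO and 192.3 CPM in the controls for Kdr. They were 38.67 and 51.99 CPM for Tie1, and 5.799 and 12.18 CPM for Emcn. Not every endothelial gene went with them. Pecam1 was at 47.3 to 71.0 CPM among the controls and at 49.0 and 55.2 CPM in HO (-0.12, SE 0.15), and the junction cadherin gene Cdh5 at 103 to 165 CPM and at 109 and 143 CPM (-0.14, SE 0.17), with overlapping groups and no call. The falls of the list numbered 7 without WT replicate 2 and 2 without HO replicate 1, where Plvap and Acvrl1 lost their calls, and they were 8 against HE alone.

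Ligands and signalling genes of vessel growth moved both ways, with 6 of 29 tested members higher and 6 lower (41.38% called against 12.3% of all genes). Vegfc, the lymphatic and venous growth factor, was at 7.52 and 9.82 CPM in the libraries labelled WT, at 7.16 and 9.35 CPM in HE and at 1.64 and 1.57 CPM in HO (-2.40, SE 0.24, edgeR adjusted p = 0.000216). Angpt1, the ligand of the Tie2 receptor made by cells around vessels, fell by 1.20. The matricellular genes Ccn1 and Ccn2, whose proteins bind integrins, rose instead. Ccn1 was at 15.1 to 16.1 CPM among the controls and at 38 and 47.1 CPM in HO (1.44, SE 0.15, edgeR adjusted p = 0.000265), and Ccn2 rose by 1.27. The fibroblast growth factor gene Fgf2 rose by 1.76. The list held 3 rises and 1 fall without HO replicate 1, and Angpt1 and Fgf2 lost their calls. The rises were 3 without each of the other libraries too.

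**Figure D2:**
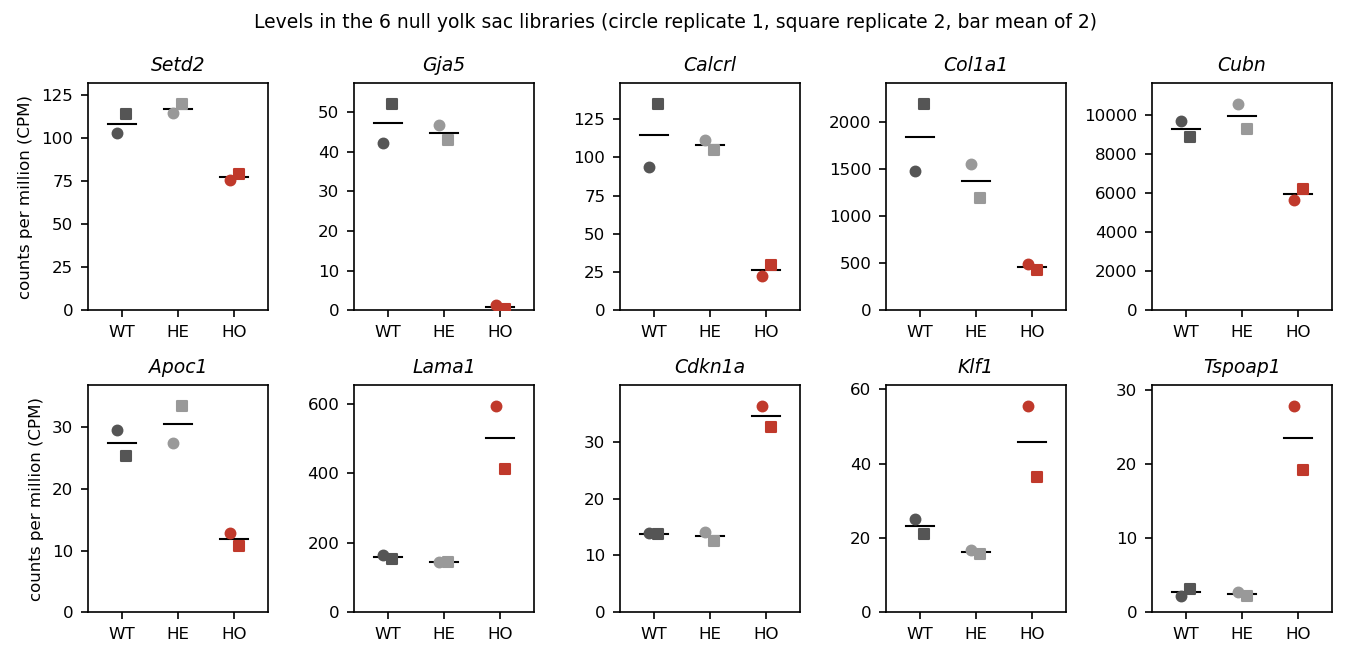
Levels of 10 genes in the 6 null yolk sac libraries, in CPM on linear axes from 0; circles are replicate 1, squares replicate 2, and bars are means of 2 libraries. In each panel both HO points lie outside the range of the 4 controls, below it for Setd2, Gja5, Calcrl, Col1a1, Cubn and Apoc1 and above it for Lama1, Cdkn1a, Klf1 and Tspoap1.

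Collagen chain genes held the highest share of calls among the lists (60.53%): of 38, 18 fell and 5 rose, with a median of -0.81. The abundant fibrillar chains were among the falls. Col1a1 was at 1474 and 2190 CPM in the libraries labelled WT, at 1552 and 1192 CPM in HE and at 485 and 422 CPM in HO (-1.81, SE 0.20, edgeR adjusted p = 0.000323). Col3a1 was at 985 to 1623 CPM among the controls and at 240 and 292 CPM in HO (-2.22, SE 0.23, edgeR adjusted p = 0.00024), and Col1a2, the partner chain of Col1a1, fell by 1.58. The rises were the basement membrane chains Col4a1 and Col4a2, Col7a1, Col20a1 and the barely detected Col19a1, of which Col20a1 kept its call whichever single library was left out. The falls were 10 without HO replicate 1, and the rises 3 without WT replicate 1, 2 without WT replicate 2, HE replicate 1 or HO replicate 2, and 1 without HO replicate 1.

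The list of extraembryonic mesoderm and mesothelium shares genes with the collagens and fell as well, 12 of 34 tested with 2 rises (median -0.29). Its called share was 41.18% against 12.3% of all genes. Postn, a matrix protein of fibroblast-like cells, was at 245 and 383 CPM in the libraries labelled WT, at 359 and 314 CPM in HE and at 116 and 133 CPM in HO (-1.38, SE 0.25, edgeR adjusted p = 0.005). The mesenchymal cadherin gene Cdh11 fell by 1.80, and Dcn, a proteoglycan that binds collagen fibrils, by 1.53. The 2 rises were Pitx1 (0.85) and Krt18 (0.43). The summed level of the list was 6040 and 6729 CPM in HO against 9496 to 12190 CPM among the controls. There were 5 falls without HO replicate 1, and Postn lost its call. The 2 rises were lost without WT replicate 2, HE replicate 2 or HO replicate 1.

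The visceral endoderm showed smaller falls of abundant transcripts. Of 24 tested apolipoprotein and lipid export genes 7 fell and Fabp3 rose (33.33% called against 12.3% of all genes, median -0.38). Of 34 carriers and endocytic receptors 7 fell and none rose (20.59% called, median -0.33). Cubn, the cubilin receptor through which the epithelium takes up proteins, was at 9652 and 8864 CPM in the libraries labelled WT, at 10558 and 9271 CPM in HE and at 5646 and 6195 CPM in HO (-0.69, SE 0.12, edgeR adjusted p = 0.00361). Apob, the structural protein of lipoprotein particles, was at 16680 to 18860 CPM among the controls and at 11940 and 11879 CPM in HO (-0.57, SE 0.12, edgeR adjusted p = 0.00933). Both genes had a clear gap between the groups at a change under 1 log2 unit. Apoc1 fell by 1.29 and Apom by 0.59, the thyroid hormone and retinol carrier gene Ttr by 0.56, prothrombin (F2) by 0.93 and plasminogen (Plg) by 1.03. Afp, the alpha-fetoprotein gene, did not follow: it was at 7024 to 9354 CPM among the controls and at 9539 and 6624 CPM in HO (-0.02, SE 0.23). The falls were 4 lipid genes without WT replicate 1, WT replicate 2, HE replicate 1 or HO replicate 2, 2 of each list without HO replicate 1, and 4 carriers without HO replicate 2. Cubn, Apob, Apom and Plg lost their calls without HO replicate 1 and Apob also without HO replicate 2.

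Of 32 tested solute carriers of nutrient transport, 9 fell and 3 rose, namely Slc2a1, Slc27a4 and Slc30a10 (37.5% called against 12.3% of all genes, median -0.24). The sodium and glucose cotransporter gene Slc5a1 was at 10.6 to 13.6 CPM among the controls and at 3.88 and 3.02 CPM in HO (-1.74, SE 0.20, edgeR adjusted p = 0.000411). The metal transporter gene Slc39a8 fell by 0.88 and the vitamin C transporter gene Slc23a1 by 0.94, while Slc2a1, the main glucose transporter of embryonic tissue, rose from 906 to 1032 CPM among the controls to 1451 and 1491 CPM (0.59, SE 0.086, edgeR adjusted p = 0.00181). Among epithelial adhesion genes 6 of 35 fell and Krt18 rose (20% called). The falls included E-cadherin (Cdh1, -0.66) and villin (Vil1, -0.57). Endoderm transcription factors had 1 rise and 1 fall in 24 tested genes, 8.33% called against 12.3% of all genes: Sox17 rose from 8.58 ± 1.67 CPM (SD, n = 4) to 18.6 ± 3.56 CPM (SD, n = 2), which was lost without HO replicate 1, and the bile acid receptor gene Nr1h4 fell by 1.40, which was lost without HO replicate 2. The rises of the solute carriers were 1 without WT replicate 1, WT replicate 2, HE replicate 2 or HO replicate 1, and their falls 5 without HO replicate 1. Krt18 lost its call without WT replicate 1, WT replicate 2, HE replicate 2 or HO replicate 1.

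Basement membrane genes, unlike the abundant fibrillar collagens, moved both ways, with 7 of 29 tested members higher and 5 lower (median 0.17). Their called share was 41.38% against 12.3% of all genes. Lama1, the alpha chain of the first laminin of the embryo (mm10 chromosome 17, 67697259 to 67822647), was at 164 and 153 CPM in the libraries labelled WT, at 145 and 144 CPM in HE and at 594 and 412 CPM in HO (1.73, SE 0.13, edgeR adjusted p = 2.52e-05). Its partner chains Lamc1 (0.74) and Lamb1 (0.49) and the collagen IV gene Col4a2 (0.61) rose, and Lama3, the alpha chain of epithelial anchoring laminin, fell by 1.76. The other falls were Col4a5, Col4a6, Col18a1 and the laminin receptor gene Itga6. The same laminins belong to the list of the neighbouring parietal endoderm, of which 8 of 16 tested members rose and 1 fell (56.25% called). Its member Pth1r, a receptor of parathyroid hormone related protein, was at 51.6 to 63.1 CPM among the controls and at 161 and 108 CPM in HO (1.26, SE 0.18, edgeR adjusted p = 0.00169). The summed level of the parietal endoderm list was 7324 and 7779 CPM in HO against 5517 to 5948 CPM among the controls, and its 4 defining markers divided. Lama1, given above, and Stra6 (3.93 and 2 CPM in HO, 0.305 to 0.707 CPM in the controls) were higher in both HO libraries than in every control, while Thbd (16.4 and 8.1 CPM in HO, 13.8 to 18.4 CPM in the controls) and Plat (8.69 and 7.5 CPM, 5.69 to 8.4 CPM) overlapped between the groups. The part of parietal endoderm in these rises was not tested. Without HO replicate 1 there were 2 rises and no fall of basement membrane genes and 3 rises of parietal endoderm, and Col4a2, Lamb1 and all 5 falls of basement membrane genes lost their calls. The falls of basement membrane genes were 2 without WT replicate 2 and 3 without HE replicate 2, and 1 against HE alone.

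Red cell membrane proteins and erythroid regulators rose, 10 of 27 tested with 1 fall (40.74% called against 12.3% of all genes, median 0.85). Klf1, the master activator of red cell genes, was at 25.1 and 21.1 CPM in the libraries labelled WT, at 16.8 and 15.6 CPM in HE and at 55.5 and 36.3 CPM in HO (1.25, SE 0.29, edgeR adjusted p = 0.0157). Gfi1b, a repressor of the same lineage, was at 10.1 to 16.8 CPM among the controls and at 42.7 and 32.3 CPM in HO (1.40, SE 0.30, edgeR adjusted p = 0.0109). The erythropoietin receptor gene Epor rose by 1.30 and the surface glycoprotein gene Cd24a by 1.41, while the water channel gene Aqp1, which endothelium also expresses, fell by 2.39. These regulators were higher in both HO libraries than in all controls, yet the calls rested on few libraries: the rises were 3 without WT replicate 1, WT replicate 2, HE replicate 2 or HO replicate 2, 6 without HE replicate 1, and 1 without HO replicate 1 or against the libraries labelled WT alone. Against HE alone they were 9. Klf1 lost its call without WT replicate 2 or HO replicate 1, Gfi1b without HO replicate 1, Epor with each null library left out but HE replicate 1, and Aqp1 without either HO replicate.

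Globin shares overlapped between the groups. Globin transcripts took 1.21% and 1.36% of counts in the libraries labelled WT, 1.21% and 0.525% in HE and 1.93% and 1.28% in HO, a mean of 1.61 ± 0.46% (SD, n = 2) against 1.08 ± 0.37% (SD, n = 4). HE replicate 2 was the lowest and HO replicate 2 lay within the range of the controls (exact permutation test, two-sided p = 0.267, adjusted over 3 shares 0.5; the smallest p that 2 against 4 allows is 0.0667). The shares of mitochondrial transcripts (p = 0.533, exact permutation test, adjusted 0.533) and of the 10 most abundant genes (p = 0.333, exact permutation test, adjusted 0.5) did not pass either. Of 9 tested globin genes only the minor Hbb-bh2 passed, from 0.775 to 1.52 CPM among the controls to 5.61 and 5.08 CPM (2.13, SE 0.40, edgeR adjusted p = 0.00621; lost without HO replicate 1). Of 23 genes of haem synthesis and iron uptake 4 rose and none fell (17.39% called against 12.3% of all genes). Among the rises were Blvrb, which reduces biliverdin (1.51), the haem synthesis enzyme gene Alad (0.63) and Fth1, a ferritin chain (0.58). None of the 4 was called without HO replicate 1. The rises were 2 without WT replicate 2, HE replicate 1 or HE replicate 2.

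Of 23 tested genes of macrophages, megakaryocytes and leukocytes 5 fell and 2 rose (30.43% called against 12.3% of all genes, median -0.42). Fcgr3, a receptor for the constant part of antibodies, was at 31.1 and 25.6 CPM in the libraries labelled WT, at 37.8 and 27.6 CPM in HE and at 5.61 and 7.13 CPM in HO (-2.26, SE 0.26, edgeR adjusted p = 0.000407). The other falls were Ptprc (-1.92), the neutrophil protease gene Prtn3 (0.821 to 2.55 CPM among the controls, 0.14 and 0 CPM in HO), Mrc1 (-0.55) and Cd93 (-0.51), none of which passed without HO replicate 2. Kit, the stem cell factor receptor gene, rose by 1.13 and Fcer1g, a chain that signals for antibody receptors, by 1.69. Against HE alone 2 fell (Fcgr3 and Prtn3) and 2 rose, and Ptprc (-1.60), Mrc1 (-0.53) and Cd93 (-0.42) were lower by similar amounts without a call. Csf1r, by contrast, was higher in both HO libraries than in the controls (0.82, SE 0.32, edgeR adjusted p = 0.111). There were 3 falls without HE replicate 1 or HE replicate 2, 2 without HO replicate 1, and 1 without WT replicate 2 or HO replicate 2, and Fcer1g was lost without either HO replicate. All 5 calls of the 27 tested genes of interferon response and antigen presentation were falls (18.52% called against 12.3% of all genes). The genes were Ifi35 (-1.49), Bst2 (-0.74), H2-D1 (-0.99), Ifitm3 (-1.41) and Ifitm1 (-1.29). H2-D1 was at 11.7 and 13.1 CPM in the libraries labelled WT, at 8.34 and 6.43 CPM in HE and at 5.98 and 3.62 CPM in HO, and its change was -0.62 against HE alone, without a call. Against HE alone the fall of Bst2 passed, while Ifi35 (-1.12), Ifitm3 (-1.23) and Ifitm1 (-1.11) were lower without a call. No fall passed without either HO replicate. They were 3 without WT replicate 1 and 2 without WT replicate 2 or HE replicate 1.

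Targets of the tumour suppressor p53 rose in 15 of 39 tested members and fell in 2 (43.59% called against 12.3% of all genes, median 0.50). Cdkn1a, the inhibitor of cell division p21, was at 13.9 and 13.7 CPM in the libraries labelled WT, at 14.1 and 12.6 CPM in HE and at 36.3 and 32.6 CPM in HO (1.34, SE 0.19, edgeR adjusted p = 0.00127). The controls spanned a narrow range and both HO libraries stood well above it. Pidd1, a scaffold of the DNA damage response, rose by 1.05 and Ddit4l, an inhibitor of mTOR, by 2.79. The falls were Tigar, which lowers glycolysis (-1.30), and the tetraspanin gene Cd82 (-0.60). There was 1 rise without HO replicate 1, that of Cdkn1a, where Pidd1 and Ddit4l lost their calls, and between 10 and 12 when another library was left out. The rises were 12 against HE alone and 6 against the libraries labelled WT alone.

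Genes of DNA replication and cell division rose as well, in 10 of 40 tested members (median 0.16), and the DNA polymerase gene Pole fell by 0.47. The called share was 27.5% against 12.3% of all genes. Cdc6, which loads the replicative helicase, was at 46.1 to 49.2 CPM among the controls and at 97.5 and 90.1 CPM in HO (0.98, SE 0.095, edgeR adjusted p = 0.000151). Rrm2, the ribonucleotide reductase subunit that sets nucleotide supply, rose by 0.56 and the helicase gene Mcm6 by 0.45. Of 32 mismatch repair and homologous recombination genes 4 rose, among them Msh6, Rad54l and Brca1, and 1 fell. The called share of these repair genes was 15.62%, near the 12.3% of all genes. Msh6 rose by 0.47. MSH6 binds the mark that SETD2 places. Replication genes rose in 2 members without HO replicate 1, in 5 without WT replicate 2 and in 6 without HE replicate 1, HE replicate 2 or HO replicate 2, and Mcm6 and Msh6 lost their calls without HO replicate 1. Rad54l lost its call whichever null library was left out. The repair genes had 1 rise without HO replicate 1 and 2 without WT replicate 1, WT replicate 2, HE replicate 2 or HO replicate 2.

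Hypoxia and glycolysis genes had 5 rises and 1 fall in 42 tested members, 14.29% called against 12.3% of all genes. The rises were Pfkfb4 (1.33), Ndrg1 (1.23), Epas1, the hypoxia-inducible factor of vessels (0.71), Mxi1 (0.62) and Slc2a1, and the fall was that of Pfkp (-0.46). Slc2a1 alone kept its call without HO replicate 1. The integrated stress response, with 1 rise (Ppp1r15a) and 3 falls (Shmt2, Herpud1 and Sars) in 38, the cholesterol genes, with 1 (Insig1) and 2 (Abca1 and Npc1l1) in 31, and the numbered zinc finger genes, with 11 and 25 in 348, had called shares of 10.53%, 9.677% and 10.34%, below that of all genes. Ribosomal protein genes (2 rises in 87), nuclear genes of oxidative phosphorylation (2 falls in 82), mitochondrially encoded transcripts (none of 15) and replication-dependent histone genes (none of 19) had the lowest shares besides the sex transcripts. The zinc finger genes had 1 to 7 rises and 4 to 15 falls when a single null library was left out. Without HO replicate 1 none of the members of the stress response, ribosomal protein, oxidative phosphorylation and mitochondrial lists was called, and 1 histone gene was.

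**Figure D3:**
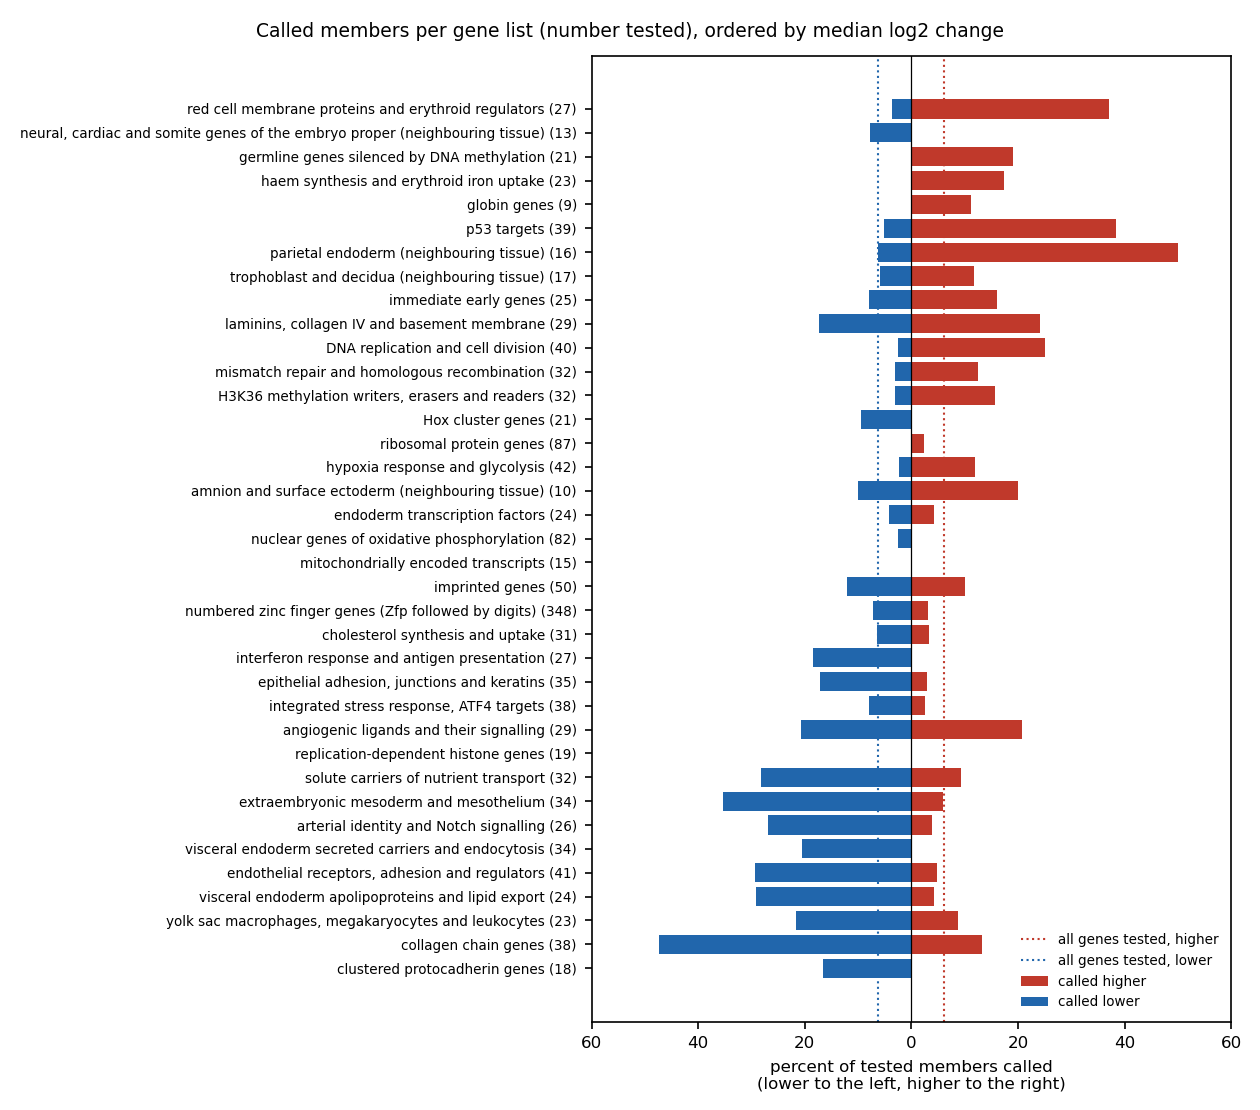
Percent of the tested members of each gene list that were called higher (right) or lower (left) in HO, ordered by the median log2 change; the number tested is in brackets and dotted lines mark all 17755 genes (6.05% higher, 6.2% lower). Collagen chains (18 of 38 lower) reach farthest to the left and parietal endoderm (8 of 16 higher) farthest to the right.

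Of 21 tested germline genes silenced by DNA methylation 4 rose and none fell (19.05% called against 12.3% of all genes): Ddx4, Taf7l, Dazl and Tdrd1. Ddx4, the germ cell RNA helicase, was at 7.93 and 5.55 CPM in the libraries labelled WT, at 7.95 and 6.84 CPM in HE and at 30.5 and 19.2 CPM in HO (1.82, SE 0.26, edgeR adjusted p = 0.00144). It was detected in every control, while Taf7l, a germ cell transcription factor subunit, was at 0.392 to 0.611 CPM in the controls and at 6.54 and 2.11 CPM in HO (3.17, SE 0.63). Ddx4 was the 1 call left without HO replicate 1, and 2 rises were left without WT replicate 2. A list of 32 genes was drawn up for writers, erasers and readers of H3K36 methylation but also held Dnmt1 and Eed. Of these 32, 5 rose (Nsd2, Dnmt1, Msh6, Mtf2 and Eed), and Setd2 was the 1 that fell. The called share was 18.75% against 12.3% of all genes. The changes were small: Nsd2, which places the dimethyl mark, was at no more than 206 CPM in the controls and at 249 and 257 CPM in HO (0.32, SE 0.077), and Dnmt1, the maintenance DNA methyltransferase, rose by 0.28. Nsd2, Dnmt1 and Mtf2 lost their calls whichever null library was left out, Tdrd1 with each left out but HE replicate 1, and Dazl without WT replicate 2, HE replicate 1 or either HO library. The rises of this list were 3 without WT replicate 2, 2 without HE replicate 1, 1 without WT replicate 1, HE replicate 2 or HO replicate 2, and none without HO replicate 1.

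Of 50 imprinted genes 5 rose and 6 fell (22% called against 12.3% of all genes). Asb4, a maternally expressed gene of vascular development, was at 34.6 and 36.1 CPM in the libraries labelled WT, at 30.7 and 25.6 CPM in HE and at 8.55 and 11.8 CPM in HO (-1.63, SE 0.24, edgeR adjusted p = 0.00184). The growth regulator Plagl1 fell by 0.72 and Grb10, an adaptor that restrains growth signals, rose by 0.78. The growth inhibitor gene Cdkn1c (1.07) and the organic cation transporter gene Slc22a3 (2.01) rose too. There were 1 rise and 2 falls without HO replicate 1, where Plagl1, Cdkn1c and Slc22a3 lost their calls, and 3 of each without WT replicate 2 or HE replicate 2, and 3 rises without HO replicate 2. Among the zinc finger genes Zfp850 fell from 11.6 to 16.2 CPM among the controls to 3.65 and 3.62 CPM (-1.92, SE 0.22, edgeR adjusted p = 0.000375), Zfp865 fell by 1.20, and Zfp981, which has close copies, rose from 0.102 CPM or less to 1.59 and 1.19 CPM (4.21, SE 0.62, edgeR adjusted p = 0.00184).

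Of 245 tested genes within 10 Mb of Setd2 16 rose and 15 fell (12.65%, against 12.3% of all genes). The called share was 14.63% within 5 Mb and 11.21% within 20 Mb. The median change was 0.12 within 5 Mb, 0.12 within 10 Mb and 0.07 within 20 Mb, against 0.02 for all tested genes. By chromosome the called share ran from 9.955% on chromosome 12 to 14.83% on chromosome 4 among the autosomes, with 12.62% on X. The called share rose with the length of the gene model in the deposited table, from 4.925% in the shortest of 5 classes of near-equal gene number to 16.62% in the longest. Rises went from 2.252% to 9.209% and falls from 2.674% to 7.406%. Longer genes collect more reads at the same level, and the part of read number in this gradient was not tested.

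The homozygous effect was set beside that of the CD allele in yolk sacs, with no library shared between the lines. In the CD line 1362 of 17755 genes were called (7.67%), 650 higher (3.66%) and 712 lower (4.01%), or 844 and 578 with library totals alone. The sign was the same in both lines at 98.07% of the 2176 genes called in the null line. In both lines 399 genes rose and 506 fell, which is 41.59% of the null calls and 66.45% of the CD calls, and 4 genes were called in opposite directions. Genes called in a line are chosen for their size there, so medians are given both ways: the null calls had a median size of 0.87 in the null line and 0.56 in the CD line, and the CD calls 0.81 in the CD line and 0.69 in the null line. Gja5 changed by -6.63 in the CD line, Vegfc by -2.65, Ifi30 by -1.69 and Tspoap1 by 2.46, all called. Lama1 was at 0.62 (called) where the null line had 1.73, and Klf1 at 0.58 and Cdkn1a at 0.63 were not called there. Both CD HO libraries were male while the CD libraries labelled WT were female, so the 2 cannot be told apart there, while each sex occurs in null HO and in null HE. CD HE replicate 2, one of the CD controls, held both Xist (897 CPM) and Ddx3y (88.3 CPM), and whether it holds more than 1 yolk sac was not tested.

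The difference between the lines was tested gene by gene, and 5 of 17755 genes passed (0.0282%; 686 at an unadjusted p under 0.05, 3.86%). Fabp3 and Hs3st1, a heparan sulfate sulfotransferase gene, had a higher change in the null line. Hs3st1 was at 0.916 to 1.77 CPM in the null controls and at 8.09 and 6.05 CPM in null HO, against 1.36 to 2.49 CPM and 0.883 and 0.359 CPM in the CD line (difference 4.11, SE 0.56, edgeR adjusted p = 0.0307). Fabp3 was at 2.28 to 4.8 CPM and at 25.6 and 14 CPM in the null line, against 2.06 to 7.93 CPM and 3.72 and 3.11 CPM in the CD line (difference 2.75, SE 0.37, edgeR adjusted p = 0.0296). Fabp3 lost the call with each null library left out but HO replicate 2, and Hs3st1 without WT replicate 2, either HE library or HO replicate 1. The other 3 had null changes near 0: the ribosomal protein gene Rpl29 (-0.01 in the null line, -3.09 in the CD line), the pseudogene Rpl34-ps1 (0.14 and -3.02) and the predicted gene Gm10709 (-0.04 in the null line, and from 5.04 to 8.08 CPM in the CD controls to 0.093 and 0 CPM in CD HO). Rpl29 and Rpl34-ps1 have near-identical copies, so their counts are uncertain. The Setd2 change itself differed by -0.63 (SE 0.11, edgeR adjusted p = 0.192), which did not pass over all genes.

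**Figure D4:**
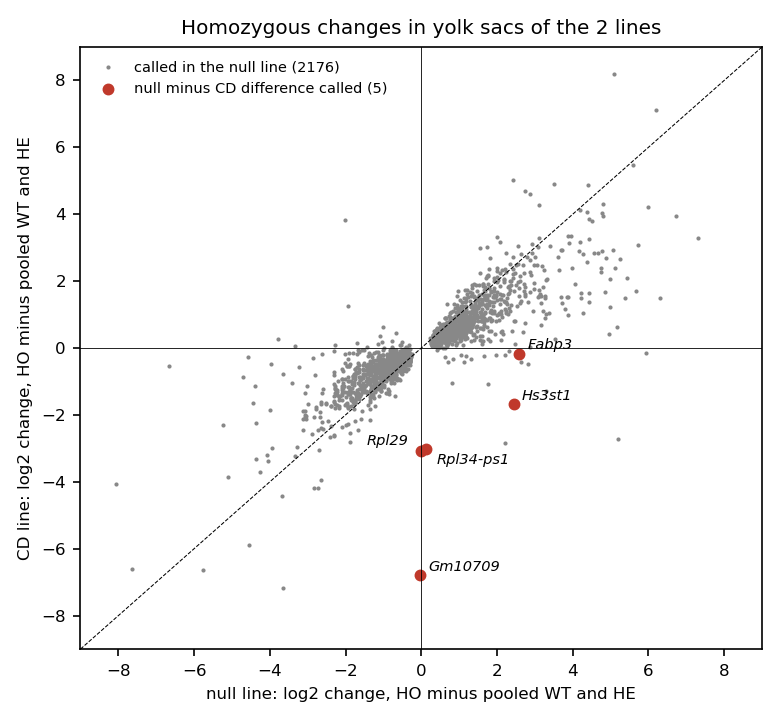
Log2 change of HO from pooled WT and HE in yolk sacs of the null line (across) and of the CD line (upwards) for the 2176 genes called in the null line (grey) and for the 5 genes whose difference between the lines passed (red); the dashed line marks equal change. Most points have the same sign in both lines (98.07%), the genes having been chosen by their null change, and Rpl29, Rpl34-ps1 and Gm10709 lie near 0 across.

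Null embryos gave more calls, 7414 of 19215 tested genes (38.6%; 3826 higher, 19.9%, and 3588 lower, 18.7%), and the common biological coefficient of variation was 0.087 there against 0.165 in yolk sacs. Of the 2069 null yolk sac calls that were also tested in embryos, 61.77% had the same sign, 757 were called in the same direction (36.59% of these, 11.39% of the embryo calls on genes tested in both) and 322 in the opposite one. The difference between the tissues passed for 3334 of 20543 genes (16.2%), the yolk sac change being higher at 1468 (7.15%) and lower at 1866 (9.08%), or 2035 and 1352 with library totals alone. Red cell genes stood on opposite sides: 1 rose and 17 fell in null embryos, and for 17 the yolk sac change was higher by the test of the difference, with 1 lower. Klf1 was at 4.79 and 6.77 CPM in WT embryos, at 7.58 and 9.23 CPM in HE and at 2.58 and 0.461 CPM in HO (-2.17, SE 0.49, edgeR adjusted p = 0.00428; difference 3.37, SE 0.61, edgeR adjusted p = 0.00117). The embryo HO replicates were far apart in globins, at 0.128% and 0.00937% of counts, against 0.204% to 0.315% among the embryo controls. Only yolk sac libraries were left out in turn, and no fit of the difference left out an embryo library.

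The genes with the smallest p for the difference between tissues included Scube2, which rose in yolk sac and fell in embryos. It was at 12.7 to 16.9 CPM among the embryo controls and at 2.74 and 2.43 CPM in HO embryos (-2.54, SE 0.20, edgeR adjusted p = 3.4e-06), and the difference was 5.74 (SE 0.41, edgeR adjusted p = 1.71e-07). Hap1, a partner of huntingtin, likewise rose in yolk sac, from 0.137 to 0.294 CPM to 2.71 and 2.59 CPM, and fell in embryos, from 8.07 to 10.2 CPM to 3.74 and 3.82 CPM (difference 4.83, SE 0.34). Gm8113 rose in yolk sac from 5.15 to 6.46 CPM to 49.3 and 34.6 CPM and was at 14.6 to 17.6 CPM in all embryos (difference 3.01, SE 0.21). For the other 3 the change was in embryos: Zfp873 and Fam32a fell there (-4.07 and -1.96, against -0.30 and -0.26 in yolk sac, not called) and Arap2 rose (2.35, against 0.05 in yolk sac, not called).

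Other genes were compared between the tissues in the same way, and lists are set side by side without a test of their difference. Cdkn1a went from 7.79 to 9.19 CPM among the embryo controls to 87.7 and 48.0 CPM in HO embryos (2.97, against 1.34 in yolk sac; difference -1.67, SE 0.28, edgeR adjusted p = 0.000668), and 29 of 39 p53 targets rose in embryos, where 19.9% of all genes did, against 15 in yolk sacs, where 6.05% did. Col1a1 was at 186 to 338 CPM among the embryo controls and at 312 and 361 CPM in HO embryos, without a call there (0.39, SE 0.28), and the difference of -2.24 (SE 0.39) passed. Extraembryonic mesoderm genes rose in 16 and fell in 7 of the 34 in embryos (19.9% and 18.7% of all genes). Gja5 fell in both tissues, by 1.84 in embryos, and the fall was larger in yolk sac (difference -3.96, SE 0.60, edgeR adjusted p = 0.000279). Calcrl (-0.36 in embryos, not called; difference -1.78) likewise changed more in yolk sac. Lama1 rose less in embryos (0.34; difference 1.35), and Zfp850 and Clcn4 fell more there (-4.20 and -3.32; differences 2.23 and 1.34). Setd2 fell by 0.97 in embryos, from pooled controls in which WT held 232 and 229 CPM and HE 169 and 157 CPM, so that the WT embryos, unlike the yolk sacs labelled WT, stood above HE. Replication genes fell in 21 of 40 in embryos and rose in 3, against 18.7% and 19.9% of all genes.

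**Figure D5:**
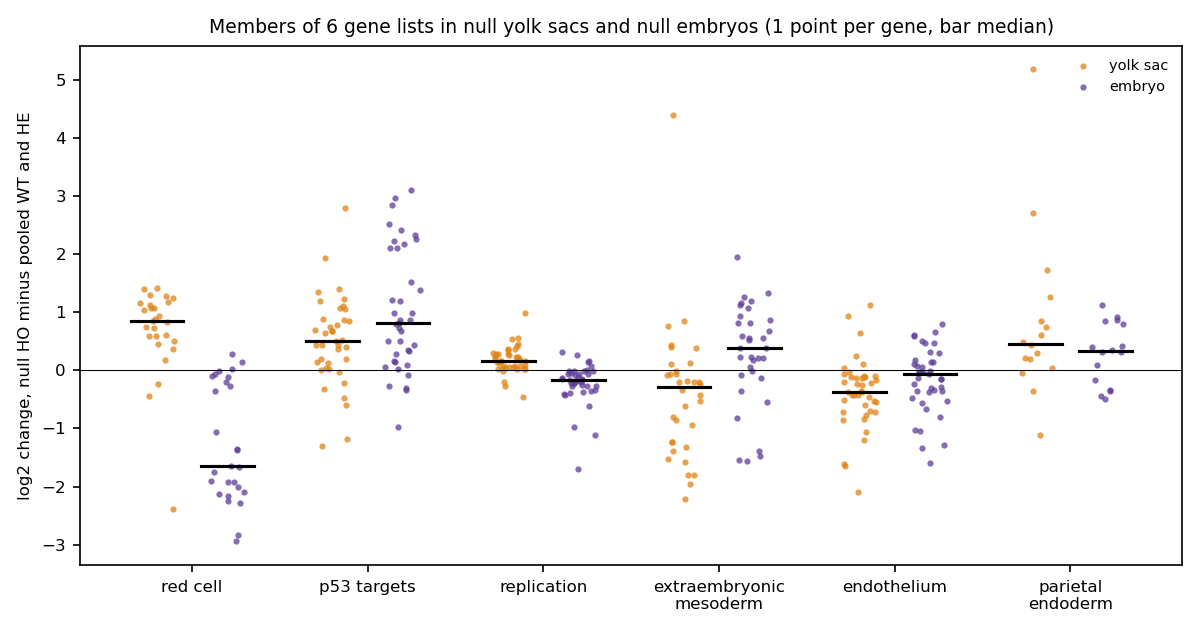
Log2 change of null HO from pooled WT and HE for the members of 6 gene lists in yolk sacs (orange) and embryos (purple), 1 point per gene with the median as a bar. Red cell genes have medians of 0.85 in yolk sac and -1.66 in embryo, and extraembryonic mesoderm genes of -0.29 and 0.39.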

How the data were processed

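The authors counted reads per gene, and the deposited counts of 12 yolk sac libraries, raw per the values (whole numbers), were the input. Per the submitters' processing notes the tools were fastp 0.22.0, HISAT2 2.2.1, featureCounts 2.0.1 and DESeq2 1.32.0, with mm10. The strand setting and the treatment of reads with several matches are not stated, so reads of overlapping genes cannot be told apart. The deposited table also gives each gene's length, used only to sort genes into 5 length classes, and 24 deposited FPKM columns were not used. Gene positions came from GENCODE M21 (mm10).

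Genes were kept by edgeR's filterByExpr (minimum count 10, minimum total 15), scaled by TMM and tested with edgeR 4.0.16 (R 4.3.3, limma 3.58.1) by the quasi-likelihood F-test with Benjamini-Hochberg adjustment at 0.05. The 12 yolk sac libraries of both lines were fitted together with 6 group coefficients and 6 residual degrees of freedom, and the control was the average of the WT and HE groups. The 12 embryo libraries were fitted alike, and the difference between tissues in a joint fit of all 24. Fold changes are log2, and 27 symbols altered to dates were restored by gene ID. Of the 230 genes that share a symbol, the copy with most counts kept it.

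The members and gene lists were chosen with earlier results of these data known. Genes named are Setd2, the 12 higher and 12 lower of smallest p with at least 1 log2 unit, 1 CPM and no overlap (predicted genes and pseudogenes passed over), up to 5 called members of each list, defining markers, sex transcripts and the leading genes of the difference tests. The following were chosen after their values were seen: Jag1, Tal1, Pitx1, Krt18, Col4a1, Col4a5, Col4a6, Col18a1, Col7a1, Col19a1, Col20a1, Itga6, Slc27a4, Slc30a10, Pole, Mtf2, Mxi1, Mrc1, Ptprc, Jun, Fst, Cdkn1c and the 7 leukocyte transcripts. Some genes that the rule names are not reported here.

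Counts of replicates of 1 group differed beyond sampling noise (chi-square per degree of freedom 8.09 in WT, 19.4 in HE and 19.7 in HO). In simulated data for the null comparison, changes were planted only in genes with an average log2 CPM above 1, and all other genes were left equal. Of the planted changes 77% of 1 log2 unit and 94% of 2 log2 units were recovered, with 14 false calls over 17755 genes. Recovery in genes at lower levels was not tested. Differences between same-numbered replicates correlated across genes at 0.0125 (WT and HE), 0.0375 (WT and HO) and 0.175 (HE and HO), so the numbers were not taken to pair samples. Alternatives were other scalings and filters, DESeq2 1.42.0, a fit of the 6 null libraries alone, and WT or HE alone as controls. A sex term, the replicate number as a block and leaving out each null yolk sac library were the others.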

Additional observations from a re-analysis of the deposited data

Results flagged for a closer look

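Dixon's test of the gap against the range was applied to 161 of the named genes. In 9 of them 1 of the 4 control libraries stood apart from the other 3, which chance gives in about 1 of 20 groups. WT replicate 2 was high in Col14a1 (61.9 CPM), Cxcl12 (29.1 CPM) and Gm8113 (6.46 CPM) and low in Vil1 (297 CPM). WT replicate 1 was high in Slc27a4 (54.9 CPM) and Ascl2 (0.151 CPM) and at 0 in Zfp981. HE replicate 2 was low in Blvrb (24.4 CPM) and Zfp873 (4.74 CPM).

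The homozygous change differed between the null and the CD yolk sacs by the interaction test at 5 genes: Fabp3 (2.75, edgeR adjusted p = 0.0296), Hs3st1 (4.11, edgeR adjusted p = 0.0307), Rpl34-ps1 (3.15, edgeR adjusted p = 0.0015), Gm10709 (6.74, edgeR adjusted p = 0.0015) and Rpl29 (3.08, edgeR adjusted p = 0.000493). For the last 3 the null change was near 0 and the fall was in the CD line, and the value of Gm10709 rests on 0.093 and 0 CPM in CD HO.

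Between null yolk sac and null embryo, 100 of the 161 named genes differed by the interaction test (16.2% of all genes tested did). The yolk sac change was higher at 48 and lower at 52. Of the 161, 155 were called in yolk sac and some were named by this same test. Their share is therefore set by the choice of the named genes. Among those with embryo values, the yolk sac change was the higher one for Scube2 (5.74), Hap1 (4.83), Zfp873 (3.73), Gm8113 (3.01), Fam32a (1.66), Klf1 (3.37), Gfi1b (3.44), Epor (3.02), Zfp850 (2.23), Lama1 (1.35), Clcn4 (1.34) and Setd2 (0.39). It was the lower one for Gja5 (-3.96), Arap2 (-2.34), Col1a1 (-2.24), Calcrl (-1.78) and Cdkn1a (-1.67). Ttr (-1.30) and Ddx4 (0.25) did not pass.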

How the results depend on the processing

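The 2176 calls became 3581 when the 6 null libraries were fitted alone and 1113 against the libraries labelled WT alone, and lay between 441 and 1532 without 1 library. With the replicate block they were 2688, and the block changed no call of a named gene but that of Ptprc. Without the filter on low counts HE against WT gave 46 calls, the CD line 2448 and the difference between lines 182. Without 1 null library HE against WT gave 0 to 1 calls, the difference between lines 3 to 8 and the difference between tissues 1973 to 3136. Setd2 fell in every fit run. Of the 160 other named genes, 86 lost the call without HO replicate 1 and 25 to 40 without another library, while other scalings ended 1 call. 4 uncalled genes turned sign: Pecam1 ran from -0.26 to 0.036 without 1 library, Cdh5 from -0.37 to 0.0396, Arap2 from -0.0456 to 0.11, and Afp from -0.32 to 0.20, with 0.00061 under library totals alone. The difference in the share of the 10 most abundant genes ran from -1.26 to -0.0695 percentage points without 1 library. The cause was not tested in any of these cases. Low counts limit genes under about 1 CPM.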

Other observations

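Among genes that respond within minutes to growth signals and stress, 4 of 25 tested rose and 2 fell (24% called against 12.3% of all genes). The factor gene Klf4 was at 4.54 to 5.98 CPM among the controls and at 16.3 and 9.45 CPM in HO (1.31, SE 0.22, edgeR adjusted p = 0.00359). Klf6, Nr4a3 and Jun rose as well, and Dusp5, a phosphatase that stops ERK signalling, and Maff fell. Without HO replicate 1 none of the 6 was called, and the rises were 2 without WT replicate 2, HE replicate 1 or HE replicate 2. Jun lost its call whichever null library was left out and in DESeq2, and Nr4a3 without WT replicate 2 or either HE replicate as well as without HO replicate 1.

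Of 17 trophoblast and decidua genes Ascl2 and Wnt4 rose and Hsd11b2 fell (17.65% called against 12.3% of all genes). Of 10 amnion and surface ectoderm genes Tfap2c and Msx2 rose and Postn fell (30% called). Hsd11b2, which inactivates glucocorticoids, was at 68.6 to 103 CPM among the controls and at 28.3 and 37.6 CPM in HO (-1.30, SE 0.17, edgeR adjusted p = 0.000911), and kept its call whichever single library was left out. Tfap2c, a transcription factor of trophoblast and ectoderm, was at 0.656 CPM or less in the controls and at 5.66 and 1.84 CPM in HO, and Ascl2 at 0.151 CPM or less and at 0.608 and 0.81 CPM. Wnt4, Tfap2c, Ascl2, Msx2 and Postn lost their calls without HO replicate 1. Ascl2 also lost its call without WT replicate 2, either HE replicate or HO replicate 2, and with the sex term. Msx2 also lost it without WT replicate 2, HE replicate 1 or HO replicate 2, and Wnt4 without WT replicate 1. Against the libraries labelled WT alone Ascl2, Wnt4, Tfap2c and Msx2 were not called, and against HE alone Ascl2 and Wnt4 were not. The trophoblast marker Prl3d1 was higher in WT replicate 1 (11.1 CPM) and HE replicate 1 (5.64 CPM) than in HO (2.66 and 4.05 CPM), and the part of tissue carried over was not tested.

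Fst, the activin antagonist follistatin, chosen after its values were seen, was at 0.0491 to 0.757 CPM in the controls and at 12.5 and 9.18 CPM in HO (5.18, SE 1.0, edgeR adjusted p = 0.00855). Its change in the CD line was 0.64 without a call, and the call in the null line was lost without HO replicate 1, against the libraries labelled WT alone and in DESeq2.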
